A study of Oryza sativa with 4 samples.

Results

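In leaves of rice progeny, 96 of 37858 gene IDs were well covered after heat treatment of the seed and stood at least 2-fold above the control in every pairing of a heated with a control library. They were chosen by their own measured values, as read counts scaled to the library total (CPM): the lower of the heated libraries had to reach 5 CPM and 2 times the higher of the control libraries, and the controls had to lie under 2-fold apart after adding 0.5 CPM. The heated floor alone was met by 15160 IDs, the floor and the separation together by 118, and the limit on the controls removed 22 of these. The members thus made up 0.633% of the IDs at the heated floor. The mirrored rule, for IDs lower in heated leaves, was met by 117.

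The series holds 4 poly(A) RNA libraries from leaf of Nipponbare, the japonica cultivar from which the rice reference genome was made. By title, heated 1 and heated 2 came from heated seed and control 1 and control 2 from control seed. The treatment label of heated 1 and heated 2 is an incubation at 30 °C. That of control 1 is 25 °C, but that of control 2 is 30 °C, as in the heated group, and whether this is an entry error is not known. Plant age, the length of the heat treatment and whether replicates were separate plants are not given by the labels, so the spread between replicates may be technical.

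Plants exposed to heat can keep altered gene expression after the stress has passed, which is called stress memory. In some plants such changes have been traced into the next generation, and chromatin marks, DNA methylation and small RNAs have been studied as their carriers. A leaf sample mixes mesophyll, vascular and epidermal cells, and a higher read count can come from more cells of a type or from more RNA per cell, which cannot be told apart here. In a rice locus ID the number before the g is that of the chromosome. Neither the file nor the reference table at hand pairs the members with a name or product (0 of 96 matched), so no function is given for any of them, the leaf label could not be checked against marker genes, and only 2 IDs are printed. The other members are told apart by their chromosome and their values.

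The libraries held 17298384 and 16605260 expected counts in heated 1 and heated 2, and 15444235 and 17214538 in control 1 and control 2. After adding 0.5 CPM, heated 1 and heated 2 were at least 2-fold apart in 2.30% of 22184 tested genes, and control 1 and control 2 in 6.27%. CPM is not corrected for transcript length, so an order of members by CPM is an order of read numbers and not of transcript abundance.

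The 96 members together took 0.381% and 0.338% of the reads in heated 1 and heated 2, against 0.0897% and 0.0907% in control 1 and control 2. Their median was 18.0 CPM in heated 1 and 13.2 CPM in heated 2, against 3.76 CPM in control 1 and 3.48 CPM in control 2. They ranged from 5.31 to 408 CPM in heated 1 and from 5.12 to 542 CPM in heated 2. In the controls they ranged from 0 to 145 CPM in control 1 and from 0 to 157 CPM in control 2. The fewest counts behind a heated value were 91.9 in heated 1 and 85.0 in heated 2, so heated values rest on many reads. The groups do not overlap in any member, which the rule fixes, whereas both heated libraries lay above both controls in 27.0% of the 22184 genes tested.

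**Figure D1:**
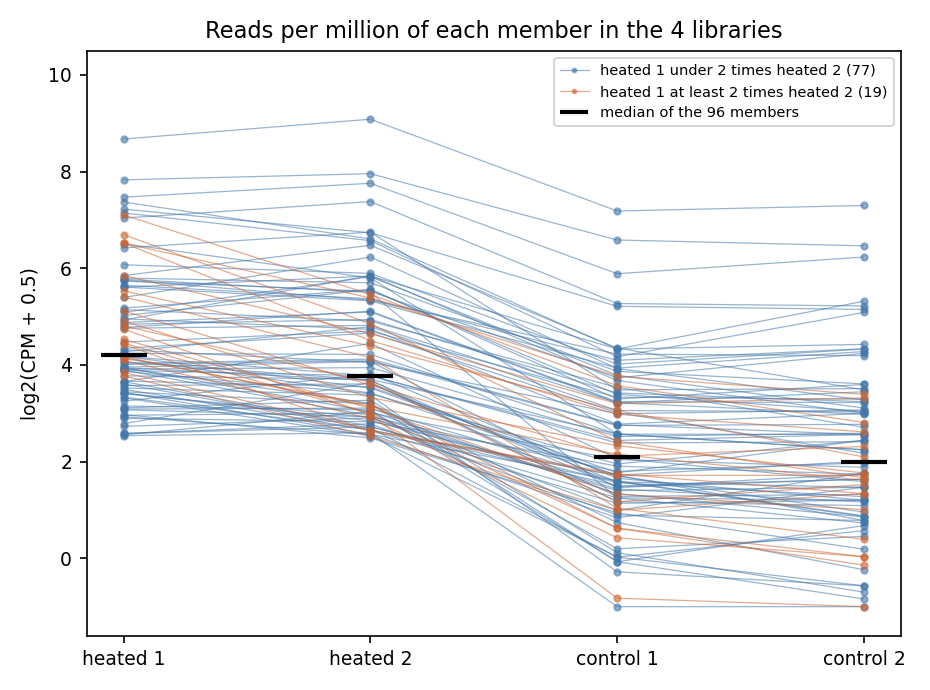
Each line is 1 of the 96 members, drawn as log2(CPM + 0.5) in heated 1, heated 2, control 1 and control 2; black bars are medians over the members (18.0, 13.2, 3.76 and 3.48 CPM). Orange lines mark the 19 members with heated 1 at 2 or more times heated 2, and blue lines the other 77.

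Many members yielded few reads in control leaves, which the rule in part fixes, since it holds both controls to at most 0.5 of the lower heated value. In 53 of the 96 both controls were under 5 CPM, and in 9 both were under 1 CPM. Both controls were at 5 CPM or more in 38 members (39.6%), beside 14273 (94.1%) of the 15160 IDs at the heated floor, for which no such limit holds, so nothing is read from the difference. The label of well expressed genes holds for the heated libraries by the rule, but the members' medians of 18.0 and 13.2 CPM in heated 1 and heated 2 lay below those of all IDs at the floor, which were 28.0 and 27.3 CPM.

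The size of the separation, the lower heated divided by the higher control CPM, had a median of 2.89 and quartiles of 2.43 and 4.03. It was under 3 in 49 members, from 3 to 5 in 26, from 5 to 10 in 12 and 10 or more in 8, and it had no value in the remaining member, which was at 0 in both controls. Members with the wider separations were those with few control reads: the median control mean was 5.81 CPM at a separation under 3, 2.77 CPM from 3 to 5 and 0.769 CPM at 5 or more. The median heated mean was 19.5, 16.0 and 13.6 CPM in the same classes. The classes share the values that chose the members, so this is a description only.

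**Figure D2:**
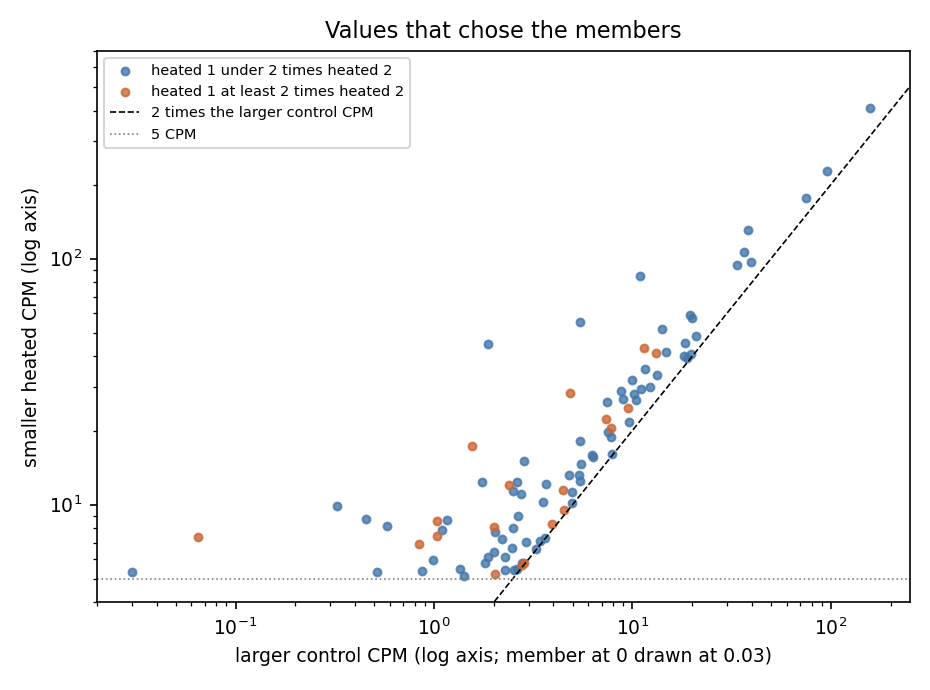
For each member, the lower heated CPM is set against the higher control CPM, both on log axes, with the limits of the rule (5 CPM, dotted, and 2 times the control, dashed). The member at 0 in both controls is drawn at 0.03 CPM; 49 of the 96 members lie between 2 and 3 times the higher control.

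Os03g0293500, on chromosome 3, had the most reads in the lower heated library. It had 408 and 542 CPM in heated 1 and heated 2, against 145 and 157 CPM in control 1 and control 2, or 475 ± 94.9 CPM in heated and 151 ± 9.18 CPM in control leaves (SD, n = 2 each). Its heated mean was 3.15-fold the control mean, and it alone gave 10.7% and 16.1% of the reads of all members in heated 1 and heated 2. Heated 2 was the higher of the heated libraries, and the controls lay close together. Its counts were not whole, so part of its reads was divided with other IDs.

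The next members by the lower heated CPM had similar, modest separations. A chromosome 6 locus had 227 and 248 CPM in heated 1 and heated 2, against 95.5 and 87.8 CPM in control 1 and control 2, and a separation of 2.38. A chromosome 2 locus had 177 and 216 CPM in heated, against 58.7 and 74.7 CPM in control leaves, also with a separation of 2.38. These 3 members gave 21.3% and 29.8% of the members' reads in heated 1 and heated 2, against 33.3% and 35.3% in control 1 and control 2. The 10 members with the highest lower heated CPM gave 42.2% and 51.1% in the heated libraries, against 50.9% and 55.8% in the controls.

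Among the 11 members with the highest lower heated CPM, 2 combined many reads with a wide separation. A chromosome 11 locus had 85.2 and 107 CPM in heated 1 and heated 2, against 10.7 and 10.9 CPM in control 1 and control 2, an 8.89-fold difference of the means. A chromosome 4 locus had 90.5 and 55.2 CPM in heated, against 5.44 and 4.24 CPM in control leaves, or 72.8 ± 25.0 and 4.84 ± 0.847 CPM (SD, n = 2 each), a 15.1-fold difference of the means. The chromosome 11 locus had close values within each group, while the heated libraries of the chromosome 4 locus were 1.64-fold apart. A chromosome 12 locus, 15th in that order, had 54.2 and 44.8 CPM in heated, against 1.88 and 1.16 CPM in control leaves, and a separation of 23.9.

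The widest separations belonged to members that were nearly silent in control leaves. Os02g0191650, on chromosome 2, had no counts in either control and 91.86 and 92.21 expected counts in heated 1 and heated 2. These are 5.31 and 5.55 CPM, or 5.43 ± 0.172 CPM (SD, n = 2), at least 59.1-fold higher in heated leaves when the controls are set at a floor of 3 counts over the group (0.0919 CPM). Its heated libraries differed little, but its counts were fractional, so reads were shared with other IDs. A chromosome 7 locus had 453 and 122 counts in heated 1 and heated 2, against 1 and 0 in control 1 and control 2. The ratio of its summed level was 554, with an exact 95% counting interval of 99.0 to 21915 that does not cover the spread between libraries.

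Also among the 5 widest separations was a pair of chromosome 12 loci with IDs close to each other. The first had 14.8 and 8.73 CPM in heated 1 and heated 2, against 0.453 and 0.0581 CPM in control 1 and control 2, a ratio of summed levels of 48.3 (exact 95% counting interval 24.3 to 113). The second had 11.0 and 9.88 CPM in heated, against 0.324 and 0.174 CPM in control leaves, a ratio of 42.7 (interval 21.5 to 99.8). Each had 8 counts over both controls, so the controls of these loci rest on few reads, and the intervals overlap widely.

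Values just inside and just outside each limit of the rule were close. Just inside the separation limit, a chromosome 10 locus had 7.28 and 7.53 CPM in heated 1 and heated 2, against 3.63 and 3.19 CPM in control 1 and control 2 (separation 2.01). Just outside it, a chromosome 6 locus had 5.67 and 9.21 CPM in heated, against 2.46 and 2.85 CPM in control leaves (separation 1.99). Just inside the floor, a chromosome 9 locus had 7.34 and 5.12 CPM in heated, against 1.42 and 0.639 CPM in control leaves. Just outside the floor, a chromosome 8 locus had 6.76 and 4.998 CPM in heated, against 1.88 and 2.15 CPM in control leaves. The member nearest the limit on the controls, on chromosome 3, had 165 and 97.0 CPM in heated, against 19.6 and 39.4 CPM in control leaves. After adding 0.5 CPM, its controls were 1.99-fold apart. The first ID beyond that limit, on chromosome 1, had 7.11 and 7.89 CPM in heated, against 0.518 and 0 CPM in control leaves. Its controls were 2.04-fold apart after adding 0.5 CPM.

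The same contrast was fitted over all genes with edgeR's quasi-likelihood test. All 96 members passed the filter on low counts, which their heated values alone assured. Of them, 43 were called higher in heated leaves (Benjamini-Hochberg adjusted p under 0.05), beside 0.248% of the 22184 genes tested; because the rule used this contrast, nothing is read from that share. The median fitted log2 fold change was 2.06 over the members and 0.0061 over all genes tested. The 43 were 78.2% of the 55 genes called higher. Of the other 12, 9 were under the heated floor, 2 had controls too far apart and 1 had a separation under 2. Calls were made in 18 of the 20 members with a separation of 5 or more, in the member with no control reads, in 11 of the 26 from 3 to 5 and in 13 of the 49 under 3.

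The count of called members depended on the test. DESeq2's Wald test called 91 members higher (1.18% of all its tested genes), and edgeR without heated 1 called 23 (0.105%). With the replicate number as a block it was 92 (1.33%). Grouping by the temperature label, control 1 against the other 3, called 0 members higher at 30 °C by edgeR (0.580% of all genes). No other tool was run on it. In that edgeR fit 6 members were higher at an unadjusted p under 0.05. The share of all genes at that unadjusted p was not counted, so nothing is read from the 6. The temperature grouping puts control 2 beside the heated libraries. With 2 libraries a group, an exact permutation of the labels cannot go below p = 0.333, so that test was not used for single members.

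The rule treats both heated libraries alike, so it did not fix which of them was higher. Heated 1 was above heated 2 in 61 of the 96 members (63.5%), against 8078 of the other 15064 IDs at the floor (53.6%). Heated 1 was at least 2 times heated 2 in 19 members (19.8%), against 74 of the other IDs (0.491%). Heated 2 was at least 2 times heated 1 in 0 members, with a highest value of heated 2 over heated 1 of 1.90, and in 6 of the other IDs (0.0398%). The heated libraries lay within 1.5-fold of each other in 56 members (58.3%), against 14607 of the other IDs (97.0%).

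The same was counted at a like level of reads. With the lower heated value from 5 to 20 CPM, heated 1 was at least 2 times heated 2 in 13 of 60 members (21.7%), against 48 of 6157 other IDs (0.780%). At this level of reads, too, the share was larger in the members than in the other IDs. The rule limits the gap between the controls but not that between the heated libraries. Of the 15064 other IDs at the floor, only 136 (0.903%) had a fitted log2 fold change of at least 1. The 2 sets thus differ by choice, and the share in IDs of a like change was not counted. Of the 22 IDs that only the limit on the controls removed, 6 had this gap, at any level of reads, so it was not particular to the members. These counts describe 2 libraries and were not tested.

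**Figure D3:**
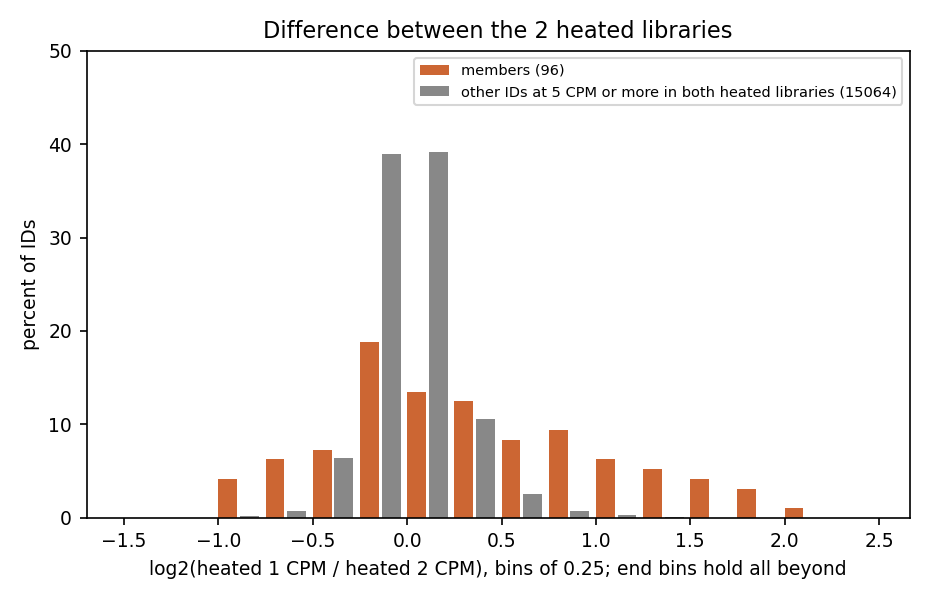
The share of IDs, in percent, is drawn by log2 of heated 1 over heated 2 in bins of 0.25, for the 96 members (orange) and the other 15064 IDs at 5 CPM or more in both heated libraries (grey). The members reach further to the right, where heated 1 is higher: 19.8% of them lie at 1 or beyond, against 0.491% of the other IDs.

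The 19 members with heated 1 at 2 or more times heated 2 form a group picked after the values were seen. Their median was 27.5 and 9.52 CPM in heated 1 and heated 2, against 2.85 and 2.56 CPM in control 1 and control 2. In the 77 other members it was 15.9 and 14.9 CPM in heated, against 4.73 and 4.24 CPM in control leaves. Their median separation was 3.16, against 2.88 in the 77. The median ratio of the heated to the control mean was 8.72, against 4.07 in the 77, but a high heated 1 raises that ratio by the way the 19 were picked. By edgeR, 5 of the 19 were called higher, against 38 of the 77, beside 0.248% of the 22184 genes tested. The gap that picked the 19 also widens the spread that the test weighs, so nothing is read from these counts.

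The widest gap between the heated libraries was at a chromosome 12 locus, with 91.3 and 22.2 CPM in heated 1 and heated 2, against 7.38 and 5.63 CPM in control 1 and control 2. Heated 1 was 4.12 times heated 2, so its mean of 56.7 ± 48.9 CPM (SD, n = 2) says little of either library. A chromosome 1 locus had 103 and 28.4 CPM in heated, against 4.86 and 2.67 CPM in control leaves, with heated 1 at 3.63 times heated 2. The reverse order was smaller in size: the largest was at another chromosome 1 locus, with 30.0 and 57.1 CPM in heated 1 and heated 2, against 12.3 and 7.51 CPM in control 1 and control 2.

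Which control was higher was likewise not fixed by the rule. Control 1 was above control 2 in 57 members (59.4%), control 2 above control 1 in 38 (39.6%), and both were at 0 in 1. Of the other IDs at the floor with controls under 2-fold apart, control 1 was the higher in 5927 of 14495 (40.9%) and control 2 in 8568 (59.1%). Among the 19 members with the uneven heated libraries, control 1 was the higher in 14. The rule removed IDs with either control near the heated libraries, so this order, which was not tested, says nothing of control 2 and its 30 °C label.

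By the digits in their IDs, members lay on all 12 chromosomes. Chromosomes 11 and 12 held 10 members each, 10.4% of the members, against 5.16% and 5.61% of the IDs at the heated floor. Per 1000 IDs at the floor there were 12.8 members on chromosome 11 and 11.8 on chromosome 12, and between 3.69 (chromosome 9) and 9.36 (chromosome 10) on the others. The numbers are small, with 3 to 12 members a chromosome, and were not tested. Values on chromosome 12 were mixed: the members with separations of 30.5, 23.9 and 19.3 lay there, and so did one of 2.03 with 6.94 and 6.59 CPM in heated, against 3.25 and 2.84 CPM in control leaves.

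**Figure D4:**
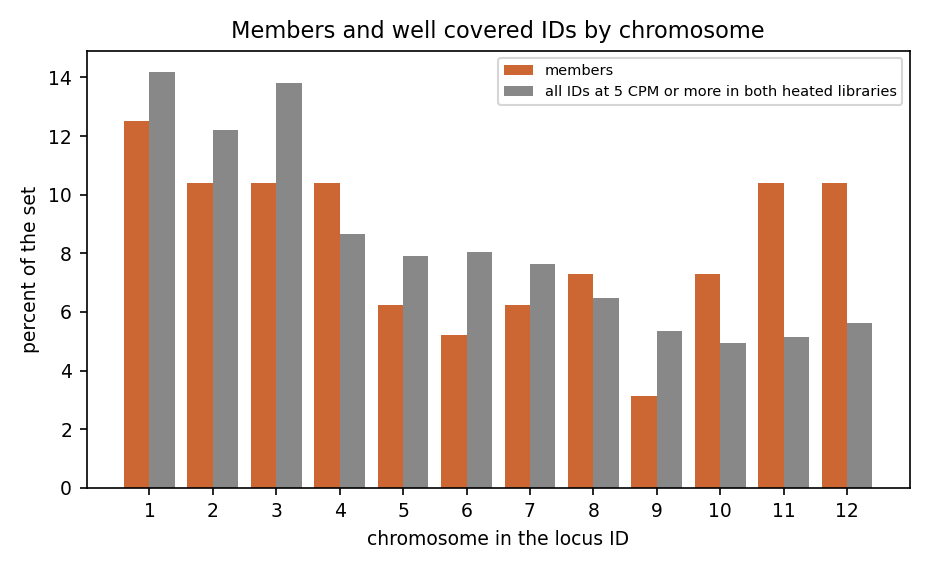
Bars give the percent of the 96 members (orange) and of the 15160 IDs at 5 CPM or more in both heated libraries (grey) on each chromosome, as named by the locus ID. Chromosomes 11 and 12 hold 10.4% of the members each, against 5.16% and 5.61% of the IDs.

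Some members were next to each other in ID order among the tested genes: 3 pairs, with 6 members (6.25%). On chromosome 11, the adjacent loci with 131 and 166 CPM and with 85.2 and 107 CPM in heated 1 and heated 2 had 38.1 and 36.8 CPM and 10.7 and 10.9 CPM in control 1 and control 2. Both had a fractional count in control 2 only (634.01 and 187.99), and their counts in the heated libraries and control 1 were whole. Heated 1 was 0.789 and 0.797 times heated 2. The second pair on that chromosome had 137 and 43.5 CPM and 57.2 and 24.6 CPM in heated, against 11.4 and 6.51 CPM and 8.68 and 9.47 CPM in control leaves. Here heated 1 was 3.15 and 2.32 times heated 2, so both pairs shared the order of the heated libraries, in opposite senses.

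The third pair, on chromosome 4, had 12.1 and 21.3 CPM and 41.6 and 74.7 CPM in heated 1 and heated 2, against 3.69 and 2.50 CPM and 14.7 and 9.18 CPM in control 1 and control 2. Heated 1 was 0.571 and 0.556 times heated 2 in its loci, and all counts of this pair and of the second were whole. Overlap of such neighbours was not tested, since no coordinates of the build of the files were used.

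The loci next to a member in ID order, members left out, were looked at in the same fit. Of 119 such neighbours at the heated floor, 6 (5.04%) had a fitted log2 fold change of at least 1, against 136 (0.903%) of the 15064 tested IDs at the floor that are not members. A log2 fold change of -1 or less was found in 4 of the neighbours (3.36%), against 155 (1.03%). Their median log2 fold change was 0.022, against 0.008 over those IDs. Of all 184 neighbours, those under the floor included, 0 were called higher and 1 lower. Among the 22088 tested genes that are not members, 12 were called higher and 100 lower, so nothing is read from the 0. The differences in share rest on few loci and were not tested.

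Fractional counts mark reads that matched several IDs. A fractional count in at least 1 library was found in 24 members (25.0%), against 3264 (21.7%) of the other IDs at the floor. None of the members had the same 4 counts as another ID, against 63 of the other IDs (0.418%). The values of the 24 are uncertain to the extent that reads were divided between near-identical loci, and a whole count does not show that none were.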

How the data were processed

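Expected counts per gene ID were deposited by the authors as RSEM wrote them for genes, per the file headers, without normalization. A read that matches several genes is divided among them by RSEM, so a count need not be whole. FastQC 0.11.7, Trimmomatic, Bowtie2, RSEM, edgeR 3.26.3 and the build IRGSP-1.0 are named in the submitters' processing notes; annotation, settings and the use of strand in counting: not given in the sources used here. Libraries came from a stranded mRNA kit and were read as paired ends, per the labels' protocols. The table had 0 columns of other samples.

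From these counts, CPM was computed as count over library total. The members and the rule for them were chosen with earlier results of these data known. They were found with Python 3.11.15. The rule for printed IDs took the member with the highest lower heated CPM and that with the widest separation, with a control at 0 as the widest; other members were given by chromosome because the reference table (1 of 37858 IDs matched) named none.

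Over the whole table, counts rounded to whole numbers were tested in R 4.3.3 with edgeR 4.0.16 (quasi-likelihood, TMM, filterByExpr with a minimum count of 10 and total of 15, group as the only term, Benjamini-Hochberg adjusted p under 0.05). The test was checked on simulated data. Alternatives were the scaling, the filter, DESeq2 1.42.0, a replicate block, the temperature label, the limits of the rule and each library left out. Counting intervals are exact (Clopper-Pearson) and, like the floor of 3 counts, cover counting error only.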

Additional observations from a re-analysis of the deposited data

How the results depend on the processing

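The number of members was 87 with TMM-scaled sizes and 87 with DESeq2's size factors, with 86 of the 96 in each; the median separation of the 96 was then 2.77 and 2.74. It moved with the limits that define it, to 270 at a heated floor of 1 CPM, 190 at 2 CPM and 58 at 10 CPM, and to 221 at a separation of 1.5 and 47 at 3. Without a limit on the controls it was 118, and with controls under 1.5-fold apart 69. Leaving out 1 library gave 137 to 597 members, lowest without heated 1 and highest without control 2. Each of these sets held all 96, which is fixed, since fewer libraries can only loosen the rule. With 1 control left, the limit on the controls could not be applied.

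Of all genes, 55 were called higher by edgeR. This became 215 without a filter (88 members), 276 with DESeq2's Wald test (91 members), 295 with a replicate block (92 members) and 135 by the temperature label (0 members), of which 0 were among the 55. Leaving out 1 library gave 24 to 1307 genes and 23 to 89 members, with 24 genes and 23 members without heated 1, 86 and 46 without heated 2, 248 and 81 without control 1, and 1307 and 89 without control 2; a lone library was taken to vary as the other group did. In all 10 fits by title, the main one included, 10 members were called higher, and 94 in at least 1. Only 84 of the members were tested in the fit that needed at least 10 counts in every library. It called 36 of them higher, and 42 of all 20303 genes it tested. Members with fewer than 10 counts in a control were not in that fit, so they could not be among the 10. Equal replicate numbers were not read as a pairing: over genes, the gap from replicate 1 to 2 in heated correlated at 0.00518 with that in control. The causes of these shifts were not tested. How many of all genes were called in every fit, or in at least 1, was not counted. The rule used the contrast by title and held control 2 low, so nothing is read from how many members were called. Of the 55 genes called by title, 78.2% were members, so nothing is read from how many of the 55 were called by the temperature label. With 2 libraries a group, the spread of a member within its group is known only roughly.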

Other observations

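The 22 IDs that met the heated floor and the separation but had controls 2-fold or more apart had medians of 22.7 and 14.5 CPM in heated 1 and heated 2, against 2.30 and 1.39 CPM in control 1 and control 2. Control 1 was the higher in 14 of them and control 2 in 8. The one with the most reads, on chromosome 12, had 168 and 158 CPM in heated, against 18.3 and 56.9 CPM in control leaves. Heated 1 was at least 2 times heated 2 in 6 of the 22.

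Outside the members, 74 IDs at the heated floor had heated 1 at 2 or more times heated 2. Their medians were 33.4 and 12.2 CPM in heated 1 and heated 2, against 12.4 and 14.1 CPM in control 1 and control 2. Heated 1 was above both controls in 67 of the 74 and at least 2 times both in 28, but both heated libraries were above both controls in only 22. The choice of these IDs by the gap between the heated libraries in part fixes this pattern.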
